A study of Mus musculus with 4 samples.

Results

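The clustered protocadherins were examined on mouse chromosome 18 of build mm9 from 37.05 to 38.02 Mb, a locus of 970 kb that holds the Pcdha cluster (37.05 to 37.35 Mb), the Pcdhb cluster (37.40 to 37.80 Mb) and the Pcdhg cluster (37.80 to 38.02 Mb). Members were chosen by position alone. Every region called for H3K4me3 or H3K27me3 that overlapped the locus was taken, which gave 141 regions of the 76945 in the 4 lists. H3K4me3 contributed 48 of the 25241 CGR8 regions and 47 of the 24618 R1 regions. H3K27me3 contributed 22 of 14575 and 24 of 12511 regions, respectively.

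The cells were rosette stem cells, pluripotent cells that stand between naive and primed ones, made from the embryonic stem cell lines CGR8 (strain 129/Ola) and R1 (strain 129). Both lines had been kept for 8 days in N2B27 with LIF, 2 µM IWP2 (an inhibitor of WNT secretion) and 1 µM PD325901 (a MEK inhibitor). The H3K27me3 antibody is credited to 2 different suppliers in the labels. Chromatin immunoprecipitation and sequencing was done once for each line and mark, so no library of a line was repeated and no untreated, naive or primed group was analysed here. The identity of the cells could not be checked against marker genes, since no gene annotation of mm9 was used here.

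Clustered protocadherins are cell adhesion molecules of the cadherin family, best known from neurons, where each cell transcribes a small and partly random choice of them and so acquires a surface identity. In Pcdha and Pcdhg, every variable first exon has a promoter of its own and is spliced to constant exons at the end of the cluster, whereas Pcdhb genes consist of single coding exons. H3K4me3 marks promoters, and H3K27me3 is the mark that Polycomb repressive complex 2 deposits over silent genes. In RefSeq's gene table for GRCm38.p6, the order runs from Pcdha1 to Pcdhac2 (14 genes), then from Pcdhb1 to Pcdhb22 (22 genes), then over Slc25a2, a mitochondrial carrier, and Taf7, a subunit of the general transcription factor TFIID, and then from Pcdhga1 to Pcdhgc5 (22 genes, 21 of them protein coding). That table was used for names and order only. Positions were not carried between builds, so no region below is assigned to a single gene.

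Positions count from 1. The score is the authors' value for each region and has no unit, so a score was read against its own list as a percentile, the percentage of regions of that list with the same or a lower score. No source used here states how many reads a library held. The scores of short regions were matched by a Poisson formula inferred from the values, with a mean of 0.740 reads per window of 200 bp in CGR8 and 0.706 in R1 for H3K4me3, and 2.11 and 1.92 for H3K27me3. The last of these rests on 2 regions. For H3K4me3 regions of up to 1000 bp the same formula gave back the number of reads in the scored windows, with a single solution in 51 of 52 cases. Where a list has no region, the mark may still have been present below what the depth could call.

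All 3 clusters carried both marks in both lines, in different proportions. H3K27me3 covered 44.9% of Pcdha in CGR8 and 43.2% in R1, 50.5% and 51.7% of Pcdhb, and 58.4% and 58.9% of Pcdhg. H3K4me3 covered 3.13% and 3.6% of Pcdha, 2.50% and 2.25% of Pcdhb, and 19.9% and 18.6% of Pcdhg. Within these bounds cover by H3K27me3 thus rose from Pcdha to Pcdhb to Pcdhg in both lines. H3K4me3 cover was several times greater over Pcdhg than over either of the other clusters. The bounds were set in Mb and not by gene positions. The stretch counted as Pcdhb includes sequence from 37686201 to its right bound where CGR8 had no H3K27me3. How far the order of H3K27me3 cover depends on the bounds was not tested. Over the whole locus H3K27me3 covered 49.5% ± 0.306 of the bases and H3K4me3 6.45% ± 0.0875 (SD, n = 2 lines). When each list was limited to its higher-scoring 50%, H3K4me3 cover fell to 2.25% and H3K27me3 cover was 46.7%. Differences between clusters or places were not tested, because each line has 1 library of a mark, regions are not replicates, and 2 lists against 2 could not go below p = 0.333 in a two-sided exact permutation test.

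**Figure D1:**
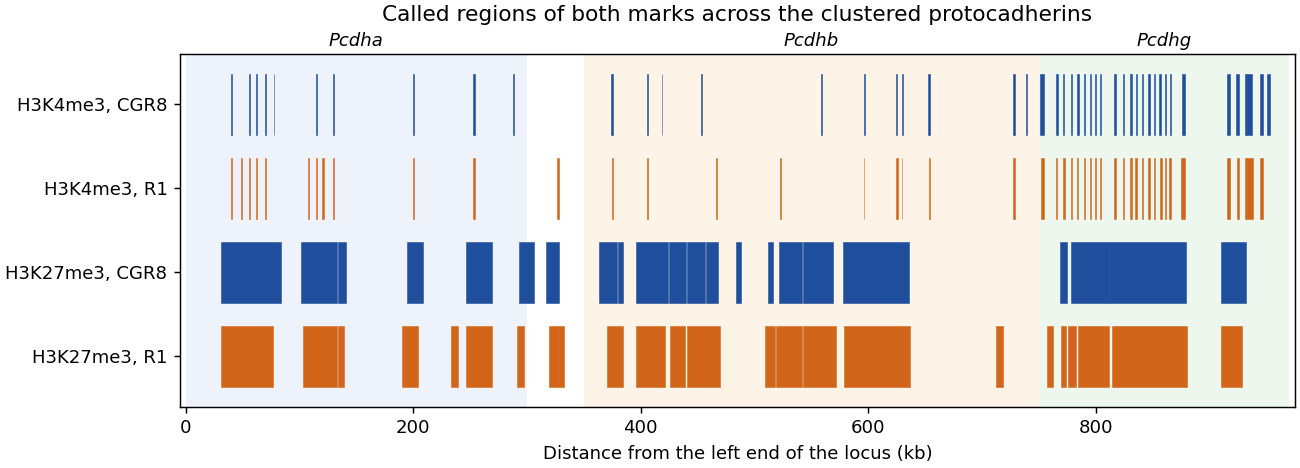
Regions called in the 4 lists, by distance in kb from the left end of the locus, 1 row for each mark and line, with the 3 clusters shaded. H3K27me3 forms broad blocks in all 3 clusters in both lines, and H3K4me3 regions are densest in Pcdhg.

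The sequence to the left of the locus carried little H3K27me3. In the 485 kb before Pcdha the mark covered 3.05% in CGR8 and 2.68% in R1, with 2 regions in each list. In the 485 kb after Pcdhg it covered 31.6% and 23.2%, in 15 and 14 regions of lower scores (median percentile 48.6 and 46.1, against 93.1 and 89.2 for the members). H3K4me3 covered more of the left side than of the locus, 8.82% and 8.33%, and overlapped there H3K27me3 in 3 of its 18 regions (CGR8) and 2 of its 20 (R1). On the right side it covered 8.08% and 7.17% and overlapped H3K27me3 in 10 of 21 (47.6%) and 8 of 18 (44.4%) regions.

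**Figure D2:**
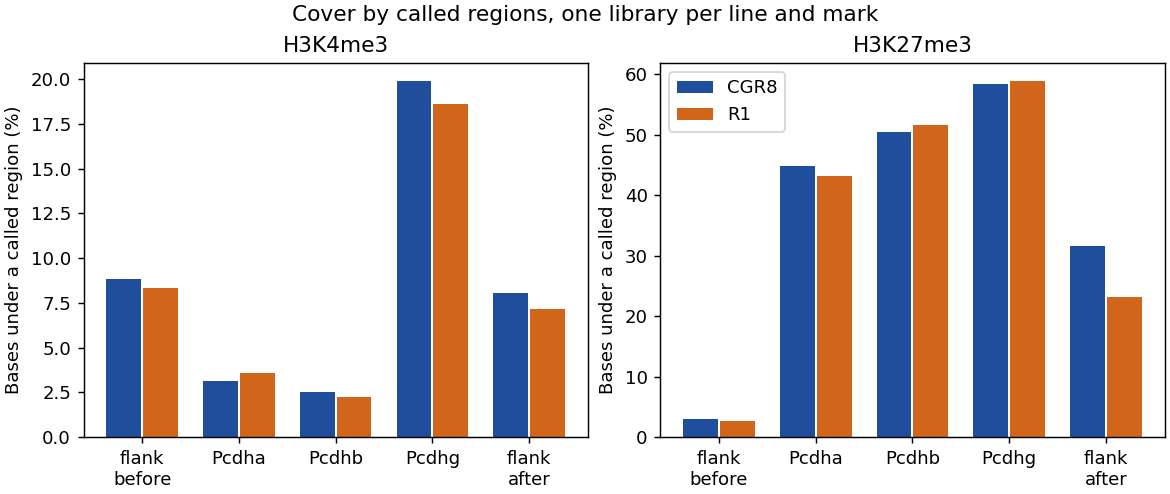
Percentage of bases under a called region for each mark (left and right panel), for the 3 clusters and the 485 kb on either side, with 1 bar for each line and no error bars, since each bar is 1 library. H3K27me3 covers at least 43.2% of every cluster, against at most 3.05% of the sequence before them.

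H3K27me3 lay in few, broad regions. In each line 10 members were at least 20 kb wide, and together they spanned 361.2 kb in CGR8 and 354.4 kb in R1. Each of these 20 regions stood at or above percentile 95.4 of its list by score. Their score per kb was also above the median of the list (19.6 in CGR8 and 20.6 in R1), at 34.5 or more in every case.

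The widest lay in Pcdhg. It spanned 67.4 kb in CGR8, from 37862201 to 37929600, with a score of 7470. In R1 it spanned 65.4 kb, from 37864601 to 37930000, with a score of 5948. By score it ranked 8 in the whole CGR8 list and 6 in the R1 list. By width it ranked 11 and 10. Its score per kb was 110.8 in CGR8 and 90.9 in R1, the highest of the members in each line. Left of it, Pcdhg was marked from 37828601 to 37861400 in CGR8 (score 1975), where R1 had a region from 37825801 to 37833200 (score 158, percentile 62.0) and one from 37834201 to 37861400 (score 1899, percentile 98.8). Further left a region ran from 37818401 to 37824800 in CGR8 (score 86.1, percentile 20.1) and from 37819201 to 37824400 in R1 (score 108.8, percentile 46.9). To the right the cluster was marked again from 37960401 to 37982200 in CGR8 (score 1304) and from 37960001 to 37978800 in R1 (score 1160).

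In Pcdha the mark was split into separate blocks. The first spanned 52.6 kb in CGR8, from 37081001 to 37133600 (score 3160), and 45.6 kb in R1, from 37081201 to 37126800 (score 2852). The second spanned 31.2 kb in CGR8, from 37151401 to 37182600 (score 2495), and 29.6 kb in R1, from 37153001 to the same end (score 2155). Both stood at percentile 99.1 to 99.6 of their lists. A minor region followed directly, from 37183601 to 37190800 in CGR8 (score 107.6) and to 37188800 in R1 (score 122.7). Beyond a stretch of 53.8 kb in CGR8 and 51.0 kb in R1 without the mark came 2 smaller blocks. One lay at 37244601 to 37258200 in CGR8 (score 584.6) and from 37239801 to 37254200 in R1 (score 602.4), the other from 37296001 to 37319400 (score 1057) and from 37296401 to 37319400 (score 1021).

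H3K27me3 at the right border of Pcdha and in the gap before Pcdhb had scores of 185 or less. A region from 37343401 to 37356600 in CGR8 (score 171.8, percentile 62.2) crossed the border of the cluster, and its R1 counterpart from 37341401 to 37347600 (score 71.6, percentile 19.1) ended before it. The difference in percentile was 43.1 points here, the largest of the H3K27me3 pairs. In the gap, regions ran from 37367201 to 37377800 in CGR8 (score 185, percentile 64.7) and from 37369201 to 37377800 in R1 (score 180.7, percentile 66.4).

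Pcdhb was marked in a chain of neighbouring blocks. From left to right in CGR8 these ran from 37413801 to 37429200 (score 380.9), from 37430201 to 37434400 (score 70.9), from 37446201 to 37474000 (score 1159), from 37475001 to 37489600 (score 487.1) and from 37490601 to 37506600 (score 865.8). They went on from 37507801 to 37518000 (score 165.8), from 37561601 to 37566800 (score 161), from 37571601 to 37591600 (score 871.2) and from 37592801 to 37618800 (score 1140). The last and strongest lay from 37628001 to 37686200 (58.2 kb, score 4069, rank 25 in the list). Of the 10 gaps between neighbouring Pcdhb regions in CGR8, 5 were 1000 or 1200 bp long, against a joining distance of up to 600 bp.

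R1 had 9 regions in Pcdhb in place of 11. These ran from 37420201 to 37434600 (score 344.6), from 37446001 to 37471200 (score 1110), from 37475801 to 37489400 (score 432) and from 37490801 to 37519400 (score 986.5). They continued from 37559001 to 37567800 (score 170), from 37568801 to 37591800 (score 900.2), from 37592801 to 37621600 (score 1185) and from 37628801 to 37686800 (58.0 kb, score 3624, rank 28). In 2 places of Pcdhb a single R1 region overlapped 2 regions of CGR8.

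The right part of the stretch counted as Pcdhb was nearly free of the mark. Whether any Pcdhb gene lies in that part was not determined, since no gene positions were used. In CGR8 no H3K27me3 was called from 37686201 to 37818400, a stretch of 132.2 kb and the longest of the locus. In R1 the free stretch ran from 37686801 to 37762200 (75.4 kb), followed by regions from 37762201 to 37768400 (score 71.9, percentile 19.3) and from 37807201 to 37812800 (score 65.8, percentile 11.2).

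**Figure D3:**
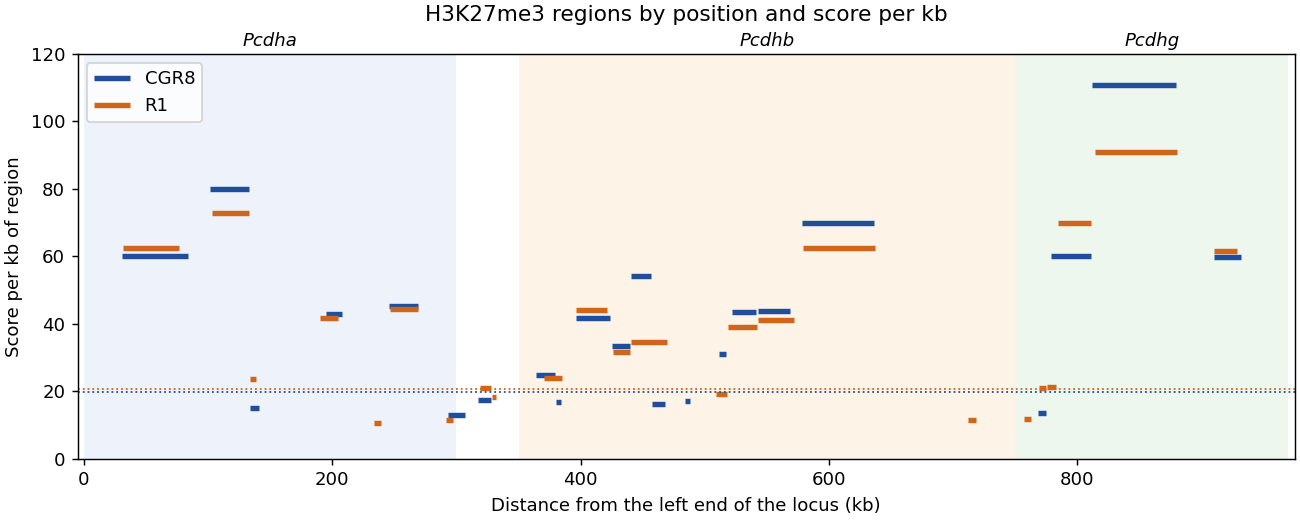
H3K27me3 regions as horizontal lines from start to end, by distance in kb from the left end of the locus, with the score per kb of each region on the vertical axis and the median of each whole list as a dotted line. The widest Pcdhg region reaches 110.8 in CGR8 and 90.9 in R1. The gap on the right of the stretch counted as Pcdhb is visible in both lines.

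H3K4me3 regions were narrow and stood low in their lists by score. The median width was 1000 bp in each line, against 2000 bp in each whole list. The median score percentile was 30.8 in CGR8 and 34.7 in R1, a mean of 32.7 ± 2.78 (SD, n = 2 lines). Only 10 of 48 members in CGR8 and 9 of 47 in R1 were in the higher-scoring 50% of their list, and none reached the top 10% in either line.

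The clusters differed in the rank of their H3K4me3 regions. In Pcdhb the median percentile was 12.4 in CGR8 (11 regions) and 15.0 in R1 (9 regions), and no Pcdhb region exceeded percentile 32.4 in CGR8 or 22.6 in R1. In Pcdha it was 21.8 (10 regions) and 29.0 (11 regions). In Pcdhg it was 42.5 (27 regions) and 44.8 (26 regions). The order Pcdhb, Pcdha, Pcdhg held in both lines, although the ranges of the clusters overlapped in each. Under the inferred formula a score is summed over windows, so these ranks also depend on width. Per kb of region, the median score in Pcdhg was 172.9 in CGR8 and 208.7 in R1, against 178.5 and 196.9 over the whole lists. It was 87.0 and 115 in Pcdha, and 67.8 and 61.6 in Pcdhb.

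Read numbers in the narrow regions, which were solved from the same scores and restate them in reads, were as follows. In Pcdha, 8 narrow regions of CGR8 held 22 to 62 reads (median 36) and 9 of R1 held 21 to 73 (median 41). In Pcdhb, 9 of CGR8 held 20 to 38 (median 28) and 6 of R1 held 23 to 35 (median 27.5). In Pcdhg, 9 of CGR8 held 28 to 115 (median 56) and 10 of 11 of R1, those with a single solution, held 30 to 95 (median 64.5). Regions wider than 1000 bp, which include the strongest, are not part of these counts. The R1 region left out of Pcdhg, from 37853801 to 37854800 (score 404.1), had the highest score of all narrow members. The R1 range and median of Pcdhg therefore lack it. Intervals given for reads are 95% exact Poisson intervals and cover counting error only.

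Nearly all H3K4me3 regions of Pcdha lay within its H3K27me3 blocks. In the first block both lines had regions near 37089601, 37105601, 37112201 and 37119801. The one at 37089601 held 62 reads in CGR8 (interval 47.5 to 79.5) and 73 in R1 (57.2 to 91.8). The following 3 held 33, 39 and 44 reads in CGR8 and 41, 47 and 49 in R1. In the second block both lines had a region near 37164401, with 29 reads in CGR8 and 40 in R1, and one at 37179601, with scores of 62.7 and 109.4.

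The strongest H3K4me3 region of Pcdha lay alone in the last block, from 37302801 to 37304400 in CGR8 (score 482.1, percentile 55.6) and to 37304600 in R1 (score 535, percentile 55.9). It was also the widest of Pcdha in each line. The block before it held a single narrow region at 37249601, with 38 reads in CGR8 and 29 in R1. The lowest-scoring regions of the cluster were each called in 1 line, from 37127201 to 37127800 in CGR8 (score 41.7, 22 reads) and from 37098801 to 37099600 in R1 (score 38.5, 21 reads).

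Pcdhb had the fewest H3K4me3 regions per kb and the lowest scores. Its highest score in CGR8 was 117.4, from 37777801 to 37779200, outside H3K27me3, and the same place from 37777601 to 37779200 was the highest in R1 (score 77.2). It was the widest of the cluster in R1 (1600 bp). In CGR8 it shared the greatest width of 1400 bp with the region from 37424201 to 37425600 (score 76.7). The lowest score was 41.4 in CGR8, from 37468801 to 37469200, and 37.7 in R1, from 37516201 to 37517000, and each was called in that line alone. In the strongest H3K27me3 block of Pcdhb, both lines had 3 H3K4me3 regions, near 37646201, 37674801 and 37679601. The first held 30 reads in CGR8 and 27 in R1, and the last 34 and 35. The middle one had scores of 45.5 and 61.2. Of the blocks further left, the first held the region at 37424201 named above, with a score of 76.3 in R1. The block starting at 37446201 in CGR8 and 37446001 in R1 held one near 37455801, with 38 and 31 reads, respectively.

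Within Pcdhg the highest H3K4me3 score belonged to a region at its left edge, from 37800801 to 37804800 in CGR8 (score 1896, percentile 85.6) and from 37801801 to 37804800 in R1 (score 1806, percentile 84.8). It was the highest of the whole locus, the widest H3K4me3 member of CGR8 (4000 bp), and free of H3K27me3 in both lines. The cluster bounds used here meet at 37.80 Mb and leave no room between Pcdhb and Pcdhg for Slc25a2 and Taf7. Whether this region belongs to a Pcdhg gene or to one of those genes was not determined. The widest member of R1 ran from 37983401 to 37988200 (4800 bp, score 402.6) at the other end of the cluster, also outside H3K27me3. The lowest score in R1 was 57.5, from 37881401 to 37882200. In CGR8 it was 46.7, from 38000801 to 38003000, which had no R1 partner.

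Of all Pcdhg regions, 22 of 27 (CGR8) and 21 of 26 (R1) overlapped H3K27me3, most of them in a dense row. The leftmost H3K27me3 region of the cluster called in both lines held one at 37821201, with scores of 383 in CGR8 and 362 in R1. Next came regions at 37828401 (207 and 310), 37833801 (349 and 257) and near 37854001 (329.6 and 404). Between the last of these stood narrow ones at 37839801 with 51 reads in CGR8 and 37 in R1, at 37844801 with 76 and 95, and at 37849401 with 47 and 34. CGR8 was thus higher at some of these neighbours and R1 at others. The widest H3K27me3 block held 12 of them in each line. They ranged from 28 reads in CGR8 and 30 in R1, at the narrow region near 37881601, to scores of 515 in CGR8 and 431 in R1 at the wide region near 37925601. Those wider than 1000 bp in at least 1 line, with scores in CGR8 and R1, lay near 37866201 (194.6 and 239), 37874201 (241 and 402), 37885201 (405 and 389), 37890401 (107 and 162), 37896401 (81.1 and 141), 37906201 (241 and 273) and 37915201 (350 and 309.5). Narrow ones lay at 37880001 with 43 reads in CGR8 and 62 in R1, near 37901401 with 56 and 43, and from 37911201 to 37912000, at the same borders in both lines, with 61 reads in CGR8 (interval 46.7 to 78.4) and 76 in R1 (59.9 to 95.1). After a gap of 36.4 kb in CGR8 and 36.6 kb in R1 without H3K4me3 the row resumed at 37965401, where CGR8 scored 699 and R1 635, the second highest score of the locus in each line. It was followed near 37973801 by one with scores of 119 and 147.

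**Figure D4:**
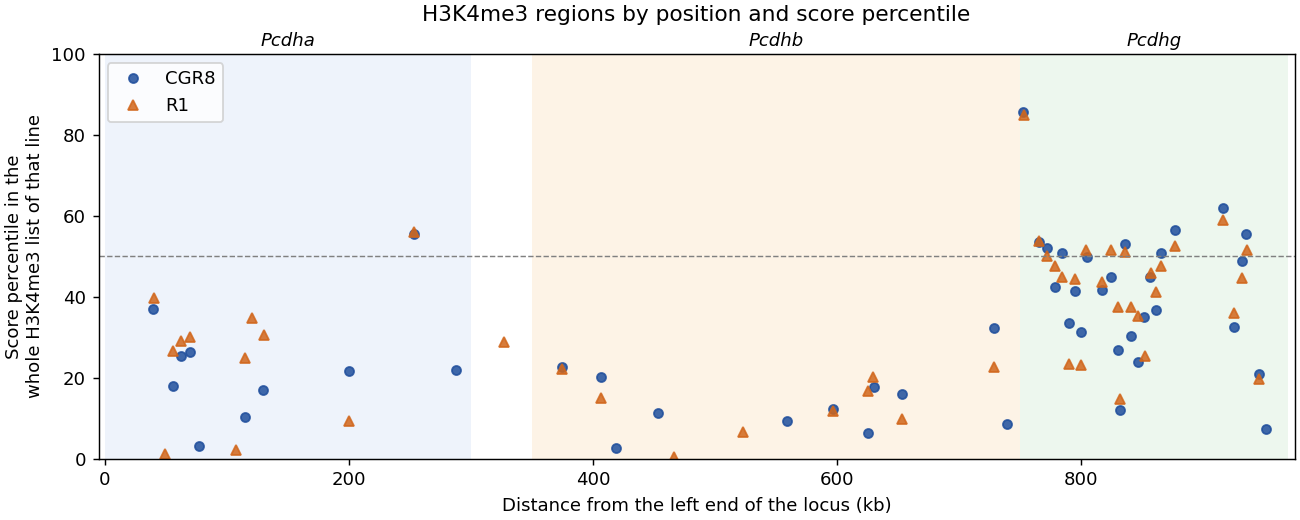
H3K4me3 regions by distance in kb from the left end of the locus and by percentile of their score in the whole list of their line, with circles for CGR8, triangles for R1 and a dashed line at percentile 50. Pcdhb regions reach at most percentile 32.4, and the single region above percentile 80 lies at the left edge of Pcdhg in both lines.

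Neighbouring H3K4me3 midpoints were closer together in Pcdhg than in the other clusters. In Pcdhg the median distance was 5.8 kb in CGR8 (quartiles 4.8 and 7.33 kb) and 5.7 kb in R1 (4.6 and 7.6 kb), and 18 of 26 distances in CGR8 and 16 of 25 in R1 were between 4 and 8 kb. Over the whole lists the medians were 28.8 and 30.0 kb, and 12.5% and 11.8% of distances fell in that range. Single Pcdhg distances ran from 1.4 to 39.4 kb in CGR8 and from 1.4 to 39.6 kb in R1. Within the H3K27me3 regions of the 4 HOX clusters, described at the end, the medians were 7.2 to 9.15 kb in CGR8 and 6.35 to 8.1 kb in R1, nearer to Pcdhg than to the whole lists. The 485 kb before Pcdha, with little H3K27me3, had medians of 9.5 kb in CGR8 and 9.1 kb in R1. In the 485 kb after Pcdhg they were 21.95 and 21.7 kb. In Pcdha the median was 16.0 kb in CGR8 and 8.35 kb in R1, where R1 had 3 regions that CGR8 lacked and CGR8 had 2 that R1 lacked. In its first block distances were 6.5 to 16.0 kb in CGR8 and 6.6 to 9.1 kb in R1. In Pcdhb the medians were 30.1 and 44.1 kb, and 7 of 10 distances in CGR8 and 7 of 8 in R1 exceeded 20 kb. Over the locus the mean of both medians was 7.55 kb, and 24.2 kb when each list was limited to its higher-scoring 50%.

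**Figure D5:**
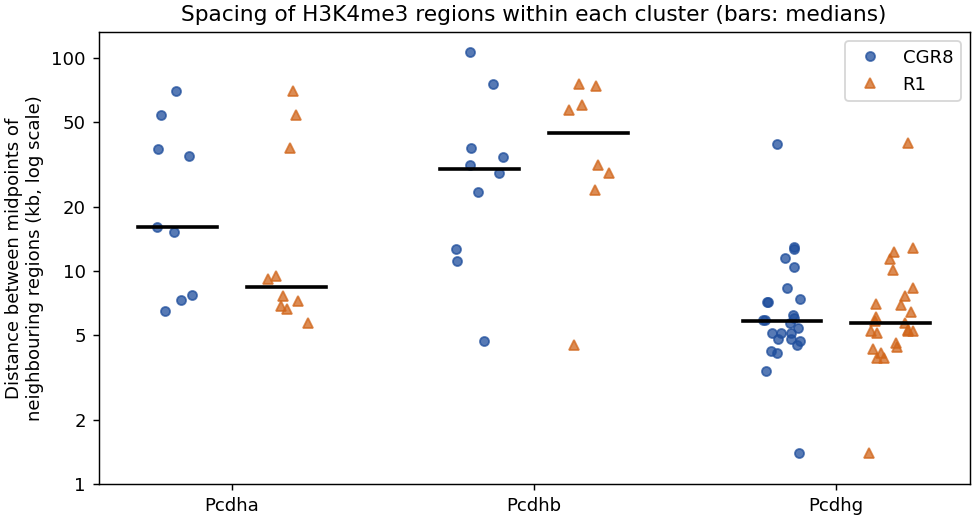
Distance between the midpoints of neighbouring H3K4me3 regions in each cluster, in kb on a log scale, with circles for CGR8, triangles for R1 and black bars for medians (points are jittered sideways). The Pcdhg medians are 5.8 and 5.7 kb, below those of Pcdha and Pcdhb in both lines.

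H3K4me3 regions of the locus mostly lay inside H3K27me3 of the same line. The overlap held for 39 of 48 members in CGR8 (81.3%), against 28.2% of the whole list, and for 40 of 47 in R1 (85.1%), against 29.1%. The mean was 83.2% ± 2.73 (SD, n = 2 lines). A cover of 49.7% of the locus in CGR8 and 49.3% in R1 by H3K27me3 gives any region there more room to meet the mark, and how much of the overlap this accounts for was not tested. Of the overlapping members, 37 in CGR8 and 38 in R1 were covered from end to end. By cluster the overlap was 9 of 10 and 11 of 11 in Pcdha, 8 of 11 and 7 of 9 in Pcdhb, and 22 of 27 and 21 of 26 in Pcdhg.

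The 9 members of CGR8 and 7 of R1 outside H3K27me3 lay in the right part of the locus, except 1 of CGR8 in Pcdha at 37337401. In both lines these included regions near 37703001, 37777801, 37800801, 37814801, 37983601 and 37995001. The region near 37814801 had scores of 419 and 468. That near 37981001 overlapped H3K27me3 in CGR8 over 54.6% of its length and missed it in R1, where the block ended at 37978800. CGR8 alone had further ones at 37789201 and 38000801.

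In the other direction, 13 of 22 H3K27me3 members in CGR8 (59.1%, against 41.3% of the list) and 15 of 24 in R1 (62.5%, against 48.8%) held H3K4me3. Those with H3K4me3 had a median width of 26.0 kb in CGR8 and 23.0 kb in R1, and those without it 10.2 kb and 6.2 kb. Wide blocks without any H3K4me3 occurred only in Pcdhb, a CGR8 block of 20.0 kb from 37571601 to 37591600 and an R1 block of 28.8 kb from 37592801 to 37621600. The other line had 1 weak H3K4me3 region in each of these blocks, with 27 reads from 37572801 to 37573800 in R1 and 25 reads from 37608801 to 37609400 in CGR8. Bases under both marks in both lines came to 35.6 kb, of which 24.2 kb lay in Pcdhg, 7.2 kb in Pcdha and 4.2 kb in Pcdhb.

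CGR8 and R1 called largely the same places. For H3K4me3, 41 of 48 CGR8 members (85.4%, against 89.8% of the list) and 41 of 47 R1 members (87.2%, against 92.6%) had a partner, shares close to those of the whole lists. Each of these 41 was a match of 1 region to 1 region. The matched share was highest in Pcdhg, with 26 of 27 CGR8 regions and 26 of 26 R1 regions matched. In Pcdha 8 of 10 and 8 of 11 were matched, and in Pcdhb 7 of 11 and 7 of 9.

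For H3K27me3, 21 of 22 CGR8 members (95.5%, against 67.1% of the list) and 20 of 24 R1 members (83.3%, against 81.1%) were found in the other line. The R1 share is thus near that of the list. Of the bases under H3K27me3 in at least 1 line, 82.0% were under it in both, against 49.3% over the whole lists. By cluster this was 79.7% in Pcdha, 83.9% in Pcdhb and 87.5% in Pcdhg. The same measure for H3K4me3 was 66.5% in the locus and 74.1% over the lists. H3K27me3 members were wider and higher in score than most of their lists. No comparison was made with other regions of like score.

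Over the 41 H3K4me3 pairs the Spearman rank correlation of the scores was 0.914, against 0.977 over the 21972 pairs of the whole lists. It was 0.928 over the 26 pairs of Pcdhg, 0.667 over the 8 of Pcdha and 0.679 over the 7 of Pcdhb. Over 16 single H3K27me3 pairs it was 0.974, against 0.823 over the 8167 pairs of the whole lists. These describe neighbouring regions that share a library in each line. The percentile was higher in R1 at 22 H3K4me3 pairs and in CGR8 at 19. In Pcdha it was higher in R1 at 7 of 8 pairs, in Pcdhb at 2 of 7 and in Pcdhg at 13 of 26. The largest difference was 14.5 percentile points, in Pcdha near 37164401.

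At 17 pairs both lines gave a read total, and the 95% Poisson intervals of the lines overlapped at 17 of 17. Overlap of the intervals does not show that the read numbers were equal. The totals were not adjusted for depth or for the width of the region in each line. R1 had more reads at 5 of 6 such pairs in Pcdha, at 1 of 4 in Pcdhb and at 4 of 7 in Pcdhg. At 37880001, for example, CGR8 had 43 reads (31.1 to 57.9) and R1 62 (47.5 to 79.5). Of the 41 H3K4me3 pairs, 38 started within 200 bp of each other and 33 ended so, against 74.0% and 74.2% over the whole lists. The median width of H3K4me3 members was below that of their lists, and no comparison was made with regions of like width. Of the 16 H3K27me3 pairs, 4 started and 5 ended within 200 bp, against 28.9% and 28.0%, and ends differed by up to 9000 bp.

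Regions called in a single line mostly had low scores. The 7 H3K4me3 members of CGR8 alone lay at 37127201, 37337401, 37468801, 37502801, 37608801, 37789201 and 38000801, with scores of 41.4 to 75.05 and a median percentile of 8.56. The 6 of R1 alone lay at 37098801, 37157401, 37170201, 37376801, 37516201 and 37572801, with a median percentile of 4.47. The scores of 2 of these 6 were below the lowest of the CGR8 list (38.5).

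The clearest exception was the Pcdha region of R1 from 37170201 to 37171200. It held 59 reads (interval 44.9 to 76.1), with a score of 136.7 at percentile 34.7, more than its neighbour at 37164601 with 40 reads. No region was called there in CGR8. The other exception was the R1 region from 37376801 to 37378000 (score 100.8, percentile 28.9) in the gap between Pcdha and Pcdhb.

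Among H3K27me3 members, a single CGR8 region in Pcdhb, from 37533801 to 37538200 (score 74.7), had no R1 partner. The 4 of R1 alone ran from 37283401 to 37289000 (score 59.4), from 37378601 to 37382200 (score 66.0), from 37762201 to 37768400 and from 37807201 to 37812800. The scores of 3 of these 4 were below the lowest of the CGR8 list (70.6), so a region of equal score would not be found there. None of the 5 held H3K4me3.

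The 4 HOX clusters, tandem arrays of developmental transcription factor genes, were set beside the locus as the widest H3K27me3 region of each line on chromosomes 2, 6, 11 and 15. They were picked for that width and are a description only. By that choice each place is a single region, here of 120.6 kb to 173.2 kb. The widest protocadherin block spanned 67.4 kb, a contrast in width that the choice itself favours. The H3K4me3 regions inside had a median percentile of 42.3 in CGR8 and 34.5 in R1, against 42.5 and 44.8 in Pcdhg. H3K4me3 covered 13.6% to 21.6% of the HOX regions. It covered 19.9% of all Pcdhg in CGR8 and 18.6% in R1, within that range. In the widest H3K27me3 block of Pcdhg, also picked for its width, it covered 24.0% and 25.1%.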

How the data were processed

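H3K4me3 and H3K27me3 regions of CGR8 and R1 rosette stem cells came from 4 lists, 1 per line and mark, each giving position and score. The score is the deposited value of the authors, with no stated unit or formula. Bowtie2 2.0.2, SICER 1.1, bedtools 2.20.1 and build mm9 are listed per the submitters' processing notes, with order, settings, threshold and control library not given in the sources used here. All starts lie on a grid of 200 bp, and gaps of up to 600 bp (H3K27me3) or 200 bp (H3K4me3) were joined, which widens H3K27me3 regions.

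Members, lists and comparisons were chosen with earlier results of these data known. Regions were assigned to the cluster with the larger overlap, and 1 shared base counted as overlap. The mean per window was solved from regions of up to 400 bp as a sum of negative natural logs of Poisson probabilities (tolerance 1e-06). It explained 143 of 144 (CGR8) and 154 of 155 (R1) for H3K4me3, and 7 of 8 and 2 of 2 for H3K27me3. Read totals were the single sums of whole counts per window giving the score, and none of 52 scores had a solution after a shift of 0.001. Reads in unscored windows of a region are not included. The overlap and read steps were tested on simulated data first. For the read step the simulated regions were shorter than most of these 52 and had no unscored windows. Recovery in longer regions was therefore not covered by that test. Each line is 1 library, so no test was run, and ± is the SD between the lines.

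Named by rule were all H3K27me3 members, H3K4me3 members overlapping H3K27me3, members without a partner, and the highest, lowest and widest H3K4me3 member of each cluster. The alternatives were a minimum overlap of 50%, limiting each list to its higher-scoring 50%, a common lower score limit, merging below 1000 bp, whole containment in a cluster and leaving out a line. No promoter sequence of these genes was used here. Python 3.11.15, numpy 2.4.6, pandas 2.3.3, scipy 1.17.1 and matplotlib 3.10.9 were used.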

Additional observations from a re-analysis of the deposited data

How the results depend on the processing

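The score limit mattered most. When each list was limited to its higher-scoring 50%, the mean number of H3K4me3 members fell from 47.5 to 9.5, their cover of the locus from 6.45% to 2.25%, their share found in the other line from 86.3% to 73.9% and their share inside H3K27me3 from 83.2% to 63.3%. Their median spacing went from 7.55 to 24.2 kb, and their median percentile, counted within the shortened list, was 6.99. H3K27me3 members numbered 18 in place of 23, and their cover was 46.7% in place of 49.5%. With a common lower score limit the shared H3K4me3 share was 88.3% and H3K27me3 cover 48.7%. Merging below 1000 bp gave an H3K4me3 cover of 6.57% and a spacing of 8.57 kb. With regions wholly within a cluster, H3K27me3 cover was 47.6%. Of 38 values over 9 results and 5 alternatives, 26 stayed within the spread between lines or, for counts, within 1.5 times, and the other 12 are those given here, beside the H3K27me3 count. Leaving out either line gives the value of the other, and with 2 lines that move cannot exceed the SD, so it says nothing about stability. No paired analysis was possible because the lists gave no test to block by line. The narrow H3K4me3 regions of Pcdhb rest on 20 to 38 reads each, the effect of depth on the calls was not tested, and a region called in 1 line is not shown to be absent from the other.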
